A study of Mus musculus with 51 samples.

Results

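The genes described here are 50 of the 24538 genes in an RNA-seq time course of mouse embryonic stem cells (mESCs) differentiated to cardiac mesoderm with Bmp4, and they reached their highest level on day 2. They were selected on measured values: a level on day 2 of at least 3 FPKM (fragments per kilobase of transcript, scaled to the size of the library) that was at least 1.5 times the level in the ES state, on day 1 and on day 3. Of 53 genes with such values, 2 were left out as histone or microRNA names (*Hist1h2ap* and *Mir5133*) and 1 as a member of the Fgf family (*Fgf13*). The stages that chose the genes therefore describe them and test nothing. The number depends on the scale: with each stage rescaled to the same FPKM sum (TPM), the rule took 131 genes, all 50 among them. By the same FPKM values and names, 601 genes were highest in the ES state, 84 on day 1 and 702 on day 3.

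The time course was run in F1G4 WT mESCs, with 2 samples per stage by their labels, as aggregates freed of feeder cells. Bmp4 was given at 20 ng/ml from the start of differentiation. The ES state is the aggregate stage before it and had no Bmp4. Knockout cells lacking *Eomes* (*Eomes* KO), *T* (*T* KO) or both (dKO) were sampled on days 2 and 3, with 1 sample for each line and day by the labels. A Cas9 nickase with paired guides around the promoter and first exon gave the single knockouts in the F1G4 background, and targeting *T* in the *Eomes* KO line gave the dKO. A further line, mESCs with conditional *Smad4* alleles (the *Smad4* line WT) and a clone in which Cre had removed the first exon of *Smad4* (*Smad4* KO), was sampled on days 1 and 2 under the same Bmp4 treatment, with 1 sample for each genotype and day by the labels. The study's figure legends, however, call the RNA-seq values of these knockouts averages over replicates, so how many samples a knockout column combines is not settled. Each table gives only 1 FPKM value for a gene in a condition, in which any replicates are combined, so depth and spread are unknown and every difference below is between 2 such values, with no replicate check and no test. In their own tables, *Eomes* fell from 9.42 to 2.42 FPKM in the *Eomes* KO and *T* from 44.8 to 6.64 FPKM in the *T* KO on day 2. *Smad4* stood at 39.3 FPKM in WT and 46.8 FPKM in *Smad4* KO cells on day 2, a value over the whole gene that does not check the loss of its first exon. Between the same columns, *Eomes* fell from 24.8 to 1.73 FPKM and *T* from 26.6 to 0.891 FPKM.

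In the mouse embryo, Bmp4 from the extra-embryonic ectoderm acts on the posterior epiblast through receptor kinases that phosphorylate Smad1/5, which enter the nucleus with Smad4. WNT and Nodal signals then sustain the primitive streak, where epiblast cells turn on the T-box factors *Eomes* and *T* and leave the epithelium as mesoderm. Genes with a transient peak are at their highest only while cells pass between these states, and such timing alone implies no shared pathway.

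The day 2 genes were mostly modest in level and in peak. Their day 2 FPKM ran from 3.01 to 93.8 with a median of 5.35, and 15 of the 50 reached 10 FPKM while 23 stayed under 5. The ratio of day 2 to the next highest stage ran from 1.50 to 3.35 with a median of 1.68, and 9 genes reached 2. Day 3 was the next highest stage for 26 genes, day 1 for 17 and the ES state for 7. The ES state was the lowest stage for 38 genes, and 42 genes stood higher on day 3 than in the ES state, so that for most the level after the peak did not return to where it began. By class, 48 were protein coding and 2 were long non-coding RNAs (*Firre* and *9230114K14Rik*). They lay on 18 chromosomes, and 14 of the 48 coding genes (29.2%) spanned more than 100 kb, against 10.8% of the 8454 coding genes at 3 FPKM or more on day 2.

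**Figure D1:**
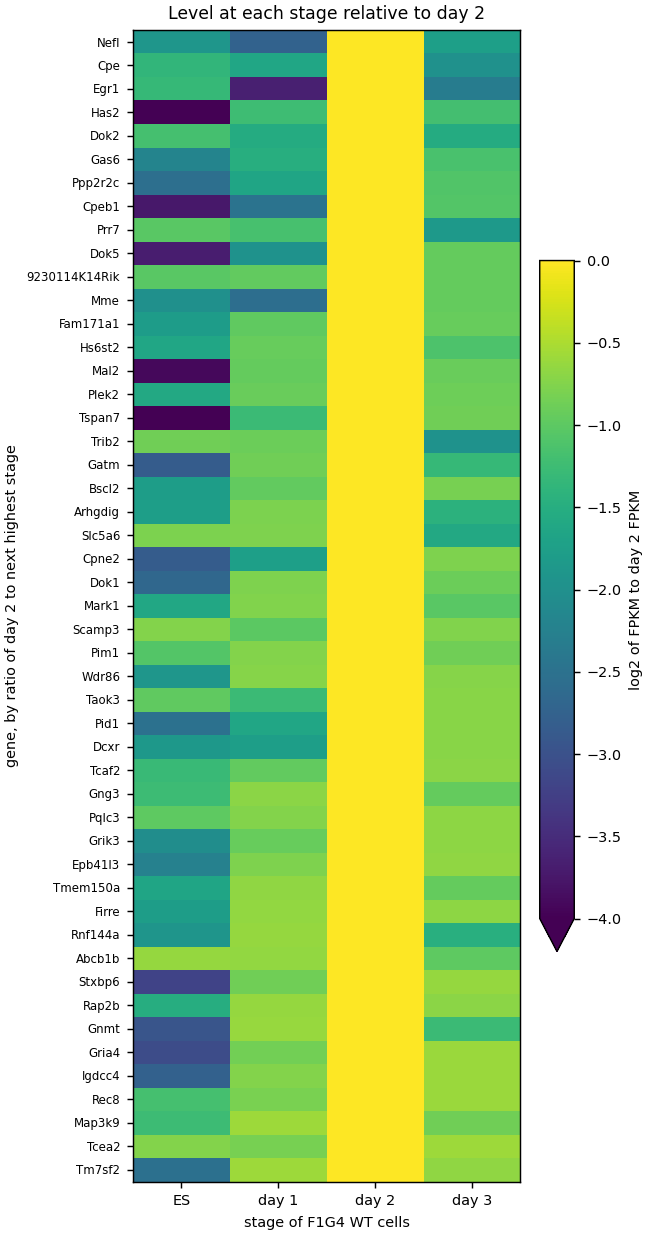
Level of 49 of the 50 genes in F1G4 WT cells at the 4 stages as log2 of FPKM to day 2 FPKM (colour, values under -4 drawn as -4), with genes ordered by the ratio of day 2 to the next highest stage. Day 2 is 0 for every gene by construction, and the ES column is the darkest for most of them.

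The genes closest to the ratio cutoff were *Tm7sf2* (1.504), *Tcea2* (1.506) and *Map3k9* (1.506) inside it and *Mboat1* (1.4997), *Scrn1* (1.496) and *Matn3* (1.492) outside it. At the level cutoff, *Mark1*, *Gnmt* and *Prr7* entered with 3.01, 3.01 and 3.02 FPKM, and *Rasd2*, *Coro2a* and *Sgsm2* missed it with 2.9, 2.88 and 2.85 FPKM.

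How far the selected pattern carried over to cells that did not choose it was read from the *Smad4* line WT, sampled on days 1 and 2. Of the 49 genes above 1 FPKM there, 11 (22.4%) rose at least 1.5 times from day 1 to day 2, against 9.92% of 11152 genes. Another 7 were at least 1.5 times lower on day 2, and the remaining 31 changed by less. The median log2 change of the 50 genes was 0.15 and that of all genes tested 0.03. The rise on day 2 was therefore seen again for a minority of the genes, and the fall after it could not be examined, as no day 3 sample of that line was analysed here. The 11 genes that rose were *Nefl*, *Ppp2r2c*, *Trib2*, *Stxbp6*, *Taok3*, *Tspan7*, *Grik3*, *Hs6st2*, *Gatm*, *Gas6* and *Mme*.

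The difference between the lines lay mainly on day 1. On day 2 the F1G4 level was higher than the *Smad4* line level for 32 of the 50 genes, with a median log2 ratio of 0.28 and a range from -1.04 to 2.84, and 10 differed more than 2-fold. On day 1 the F1G4 level was higher for 6 genes, with a median log2 ratio of -0.63, and 14 differed more than 2-fold. Over all genes at 3 FPKM or more in F1G4 cells on the day, the median log2 ratio of the lines was 0.01 on day 2 (8834 genes) and 0.09 on day 1 (8650 genes). Its robust SD was 0.30 on day 2 and 0.47 on day 1, against which the 1.5-fold of the rule is 0.58 and the 2-fold cutoff 1. This SD is the only yardstick here for how far WT cells differ, and the *Smad4* line WT carries conditional *Smad4* alleles. On day 1 it leaves out many of the 50 genes, whose median level that day was 2.68 FPKM. On day 2 *Eomes* was 24.8 FPKM in the *Smad4* line WT and 9.42 in F1G4 WT, and *T* was 26.6 and 43.1 FPKM. The rule required a low day 1 value in F1G4 cells, and the lines differ in origin and in the levels of *Eomes* and *T*. These cannot be told apart.

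**Figure D2:**
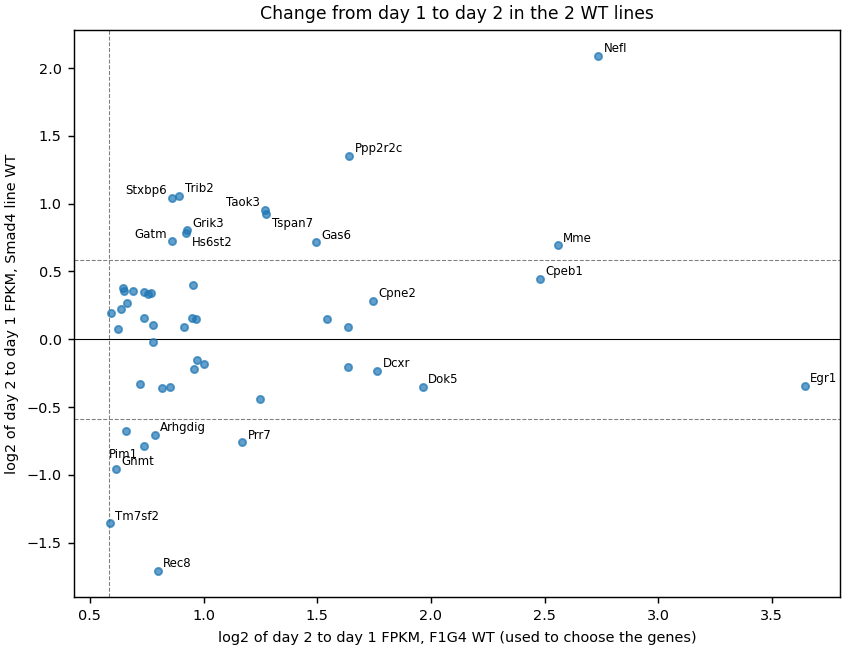
log2 of day 2 to day 1 FPKM for each of the 50 genes in F1G4 WT (horizontal, used for the selection) and *Smad4* line WT (vertical), 1 point per gene, dashed lines at a 1.5-fold change. In the *Smad4* line 11 genes lie above the upper line and 7 below the lower one, with *Nefl* at 2.09 and *Rec8* at -1.71.

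*Nefl*, which encodes the light neurofilament subunit of the neuronal intermediate filament, had both the highest day 2 level and the highest ratio to the next stage. The gene lies at chr14:68083863-68089095. Its FPKM was 25.1 in the ES state, 14.1 on day 1, 93.8 on day 2 and 28.0 on day 3. In the *Smad4* line WT it went from 45.4 to 193 FPKM between days 1 and 2, the largest rise of the 50 genes there. In *Smad4* KO cells it was 18.5 on day 1 and 21.9 on day 2, so the rise of the WT was nearly absent and the day 2 log2 ratio of KO to WT was -3.14. On day 2 it was 9.30 FPKM in *Eomes* KO, 41.9 in *T* KO and 10.0 in dKO cells. The log2 ratios to WT were -3.32, -1.21 and -3.21, and the *T* KO level remained above the ES level while the other two were below it. *Nefl* also stayed under its WT level on day 3, with 4.91, 11.4 and 6.57 FPKM in these lines.

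**Figure D3:**
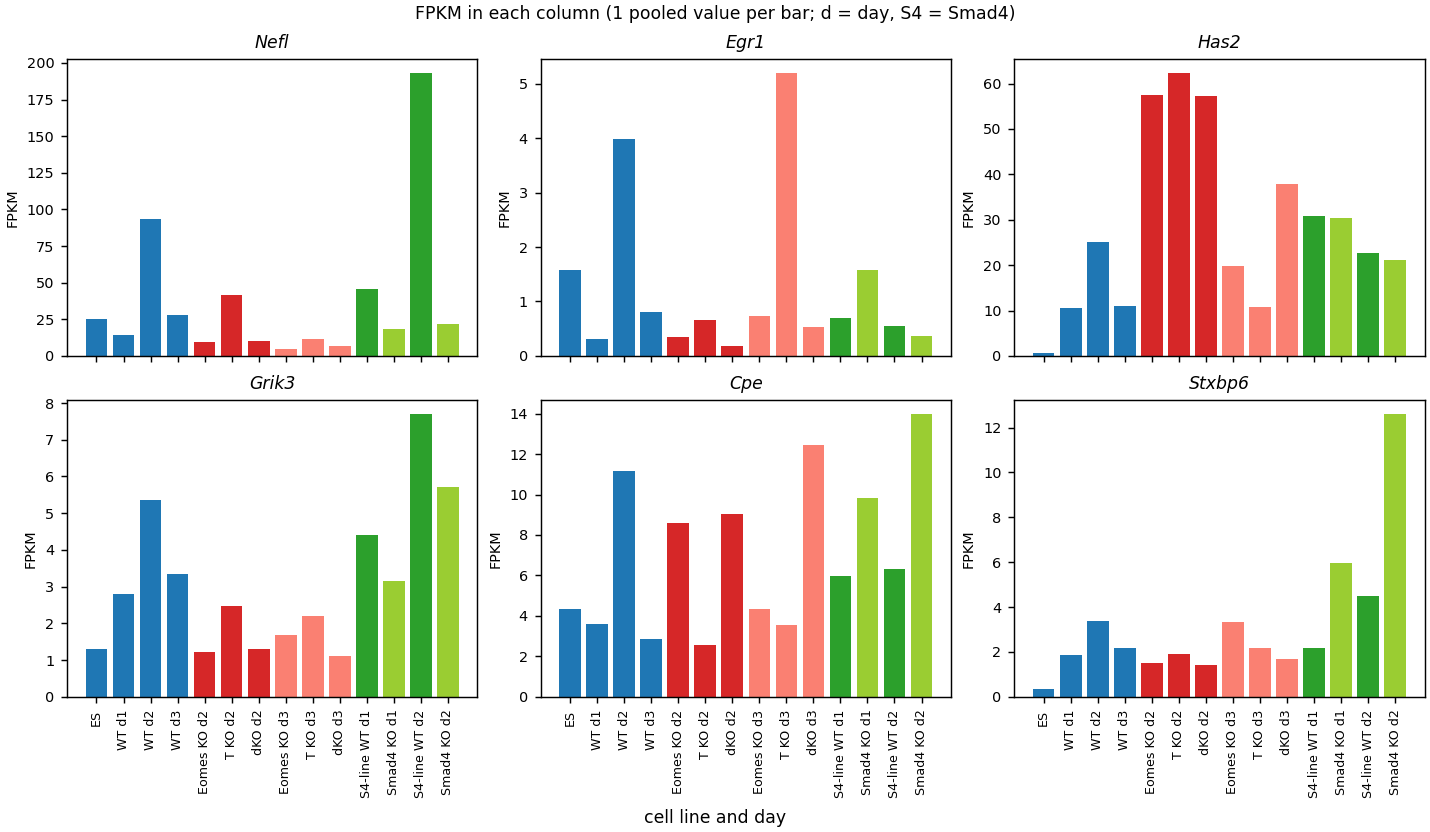
FPKM of *Nefl*, *Egr1*, *Has2*, *Grik3*, *Cpe* and *Stxbp6* in each column, 1 pooled value per bar with no error bar available: F1G4 WT (blue), F1G4 knockouts on day 2 (red) and day 3 (light red), and the *Smad4* line WT and KO (dark and light green). *Nefl* is highest in the WT of both lines on day 2 (93.8 and 193 FPKM), *Has2* in the 3 F1G4 knockouts on day 2 (57.3 to 62.3 FPKM), and *Stxbp6* in *Smad4* KO cells on day 2 (12.6 FPKM).

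Knockouts were read with the cutoff of the study's methods: FPKM above 1 in at least 1 of the 2 columns and a log2 ratio of KO to WT above 1 or below -1. The *Smad4* comparison uses no value that chose the genes. There, 7 of 49 genes (14.3%) were lower on day 2, against 3.21% of 10999 genes tested, and 2 (4.08%) were higher, against 2.56%. The median log2 ratio of the 50 genes was -0.07 and of all genes tested -0.01. Of the 7 lower genes, *Nefl*, *Ppp2r2c*, *Hs6st2* and *Taok3* were among those that rose in the *Smad4* line WT. The rise and the lower call share the single WT day 2 value, and a high value there alone would give both. In bulk RNA, fewer cells of a type and less RNA per cell cannot be told apart.

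*Hs6st2*, a heparan sulfate 6-O-sulfotransferase that modifies the sugar chains to which many growth factors bind, went from 7.41 to 12.8 FPKM in the *Smad4* line WT and from 5.03 to 4.12 in the KO. Its day 2 log2 ratio was -1.63. *Taok3*, a kinase of the STE20 group that acts upstream of stress-activated MAP kinases, went from 4.19 to 8.11 FPKM in the WT and stayed at 2.80 and 2.83 in the KO (log2 ratio -1.52). For both genes the WT rose and the KO did not, as for *Nefl*. *Ppp2r2c*, a regulatory B subunit of protein phosphatase 2A, rose from 4.14 to 10.6 FPKM in the WT and was 4.84 and 4.76 in the KO (log2 ratio -1.15).

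*Dok5*, *Slc5a6* and *Scamp3* differed in that the *Smad4* line WT did not rise. *Dok5*, a docking protein recruited to receptor tyrosine kinases, was 4.32 and 3.39 FPKM in the WT and 2.86 and 1.45 in the KO on days 1 and 2 (day 2 log2 ratio -1.22). *Slc5a6*, the sodium-dependent transporter of biotin and pantothenate, was 3.05 and 3.01 FPKM in the WT and 2.17 and 1.29 in the KO (log2 ratio -1.22). *Scamp3*, a secretory carrier membrane protein, was 2.12 and 1.87 FPKM in the WT and 1.83 and 0.789 in the KO (log2 ratio -1.25). The day 2 values of *Dok5*, *Slc5a6* and *Scamp3* were low, and calls at such levels depend on the lack of a pseudocount. With a pseudocount of 1, the share of the day 2 genes lower in *Smad4* KO cells went from 14.3% to 8.16%. *Egr1* stood at 0.554 FPKM in the WT and 0.367 in the KO of this line on day 2, below the level at which it could be called.

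The 2 genes higher in *Smad4* KO cells were *Stxbp6* and *Cpe*, and both already stood higher on day 1. *Stxbp6* encodes amisyn, a syntaxin-binding protein of the vesicle fusion machinery. It went from 2.18 to 4.50 FPKM in the *Smad4* line WT and from 5.94 to 12.6 in the KO (day 2 log2 ratio 1.49). In the F1G4 lines its day 2 level was 3.36 FPKM in WT, 1.52 in *Eomes* KO, 1.92 in *T* KO and 1.41 in dKO cells, on the other side of WT. That shared WT value chose the gene, so a lower knockout value is partly built in. The *T* KO log2 ratio of -0.86 did not pass the cutoff. *Cpe*, carboxypeptidase E, which trims peptide hormone precursors, was 5.95 and 6.34 FPKM in the *Smad4* line WT and 9.81 and 14.0 in the KO (log2 ratio 1.14). In F1G4 cells it showed one of the sharpest peaks, with 4.33, 3.59, 11.2 and 2.84 FPKM from the ES state to day 3, and that rise was not seen in the *Smad4* line WT.

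Promoter sequences are shown for genes that were lower past the cutoff on day 2 in *Smad4* KO cells or in every F1G4 knockout (such as *Egr1* and *Grik3*, described next, and *Nefl*). Promoter windows of 300 bases (250 before and 50 after a gene start) were taken from RefSeq on GRCm38.p6, and 37 of the 50 genes had at least 1. Of the 10 genes that qualified, 5 had a window, and *Nefl*, *Egr1*, *Dok5* and *Scamp3* among the others are named only. *Hs6st2* and *Slc5a6* each had a second window, at chrX:51681553-51681852 and chr5:31048513-31048812, which held none of the words and is not printed. The windows are shown here for the positions of short Smad and TCF/LEF words, because Smad4 and the WNT effectors act through DNA: capitals mark the Smad word GGCGCC in *Hs6st2* (chrX:51680428-51680727, minus strand), *Ppp2r2c* (chr5:36868260-36868559, plus strand) and *Grik3* (chr4:125490446-125490745, plus strand), and the TCF/LEF word CTTTGA, read as TCAAAG on the other strand, in *Slc5a6* (chr5:31048030-31048329, minus strand) and *Taok3* (chr5:117119879-117120178, plus strand). Each is written 5′ to 3′ on the strand of its gene.
Hs6st2: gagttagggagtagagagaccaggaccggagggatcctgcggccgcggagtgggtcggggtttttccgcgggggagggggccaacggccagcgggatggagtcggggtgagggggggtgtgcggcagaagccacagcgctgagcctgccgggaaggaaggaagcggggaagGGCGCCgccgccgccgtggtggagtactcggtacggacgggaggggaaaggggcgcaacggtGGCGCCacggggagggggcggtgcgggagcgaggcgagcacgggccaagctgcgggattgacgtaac
Ppp2r2c: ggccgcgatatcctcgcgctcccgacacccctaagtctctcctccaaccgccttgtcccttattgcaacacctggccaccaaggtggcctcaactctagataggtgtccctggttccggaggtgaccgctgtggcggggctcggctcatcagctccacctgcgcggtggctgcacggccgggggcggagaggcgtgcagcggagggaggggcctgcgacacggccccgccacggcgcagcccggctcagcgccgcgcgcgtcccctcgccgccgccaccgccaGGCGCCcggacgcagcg
Grik3: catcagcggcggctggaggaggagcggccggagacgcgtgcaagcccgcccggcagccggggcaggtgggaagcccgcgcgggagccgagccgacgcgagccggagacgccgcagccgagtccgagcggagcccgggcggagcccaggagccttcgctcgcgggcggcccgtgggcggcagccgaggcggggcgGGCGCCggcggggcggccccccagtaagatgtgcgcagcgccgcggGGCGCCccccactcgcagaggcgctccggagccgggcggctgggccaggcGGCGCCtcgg
Slc5a6: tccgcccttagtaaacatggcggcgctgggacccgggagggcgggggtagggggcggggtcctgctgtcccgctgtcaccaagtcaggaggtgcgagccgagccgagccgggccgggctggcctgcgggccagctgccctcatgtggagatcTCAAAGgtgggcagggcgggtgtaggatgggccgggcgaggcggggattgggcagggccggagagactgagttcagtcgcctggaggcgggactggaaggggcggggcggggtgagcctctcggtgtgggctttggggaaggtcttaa
Taok3: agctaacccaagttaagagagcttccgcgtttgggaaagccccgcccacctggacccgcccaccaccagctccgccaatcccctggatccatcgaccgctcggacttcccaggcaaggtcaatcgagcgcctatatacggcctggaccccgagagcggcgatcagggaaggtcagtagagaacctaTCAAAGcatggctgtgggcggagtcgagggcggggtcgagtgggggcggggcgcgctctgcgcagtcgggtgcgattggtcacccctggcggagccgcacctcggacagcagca

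GGCGCC began 79 and 17 bases before the start in *Hs6st2*, 56 and 10 bases before it in *Grik3* and at base 41 after it, and at base 34 in *Ppp2r2c*. TCAAAG began 98 bases before the start in *Slc5a6* and 64 in *Taok3*. GGCGCC, which is its own reverse complement, was present in 13 of 37 genes with a window (35.1%), against 13.4% of all 27025 genes with one and 26.3% of the 6989 among them at 3 FPKM or more on day 2. The windows of the day 2 genes were also richer in G and C, with a median of 67.7% against 62.3% for those 6989 genes. Among windows under 60% GC the word was held by 0 of 8 day 2 genes and by 13.3% of the 2601 expressed genes. At 60 to 70% GC it was held by 4 of 14 day 2 genes (28.6%) and by 27.3% of the 2906 expressed genes, and at 70% GC or more by 9 of 15 (60%) and by 47.4% of 1482. CTTTGA was in 6 of 37 genes (16.2%) and in 18.2% of all. The T-box word AGGTGTGA was in 1 of 37 (*Bscl2*, 2.70%) and 1.5% of all, and GTCTAGAC and the FoxH1 word TGTGGATT were in none of the 37 and in 0.248% and 1.01% of all. All words were searched on both strands, none overlaps another in the windows printed, and a match describes letters, not binding.

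In the F1G4 knockouts the WT day 2 column that chose the genes is also the control, so a lower value in the knockout is partly built in, and the *Eomes* KO, *T* KO and dKO comparisons share that control. Nothing is therefore read from the counts. In *Eomes* KO cells 9 of 50 genes (18%) were lower and 1 (2%) higher on day 2, where 4.17% and 3.35% of 11226 genes were. In *T* KO cells 10 (20%) were lower and 1 (2%) higher, where 9.93% and 5.7% of 11359 genes were. In dKO cells 7 (14%) were lower and 1 (2%) higher, where 4.5% and 3.48% of 11195 genes were. The median log2 ratios of the 50 genes were -0.44, -0.26 and -0.36, with all genes tested at -0.01 in each. The counts depend on the scale: on the log2 scale, the FPKM sum of the KO column differed from that of WT by 0.22 in *Eomes* KO, -0.12 in *T* KO and 0.41 in dKO, and when each column was rescaled to the same sum (TPM), 12, 9 and 18 genes were lower and 0, 2 and 0 higher. Across all genes called, that rescaling moved the share that was lower from 55.5% to 73.8% in *Eomes* KO, from 63.5% to 51.7% in *T* KO and from 56.4% to 88.2% in dKO.

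**Figure D4:**
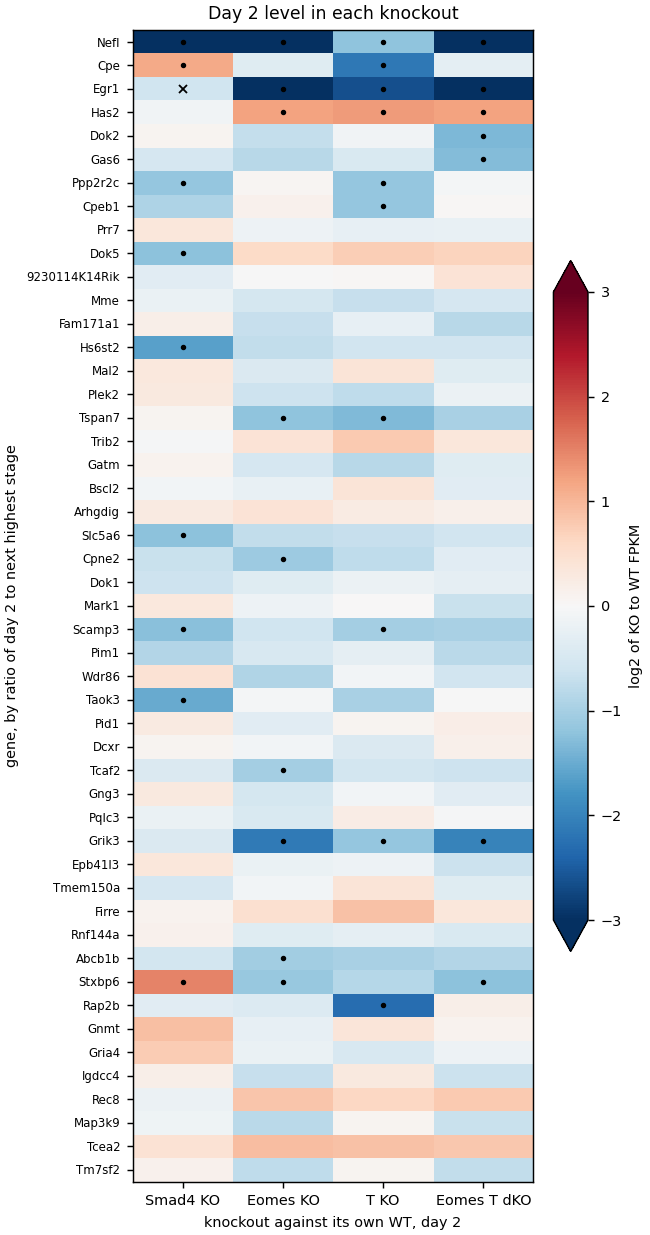
log2 of KO to WT FPKM on day 2 for 49 of the 50 genes (rows, in the order of the time course plot) in the *Smad4* KO, *Eomes* KO, *T* KO and dKO comparisons (blue lower, red higher, values past 3 drawn as 3). Dots mark values past the 2-fold cutoff and the cross a gene under 1 FPKM in both columns. *Nefl* has the darkest blue row, and *Has2* is dotted red in the F1G4 knockouts.

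*Egr1* and *Grik3* had large differences from WT in these lines. *Egr1*, a zinc finger factor of the immediate early response to growth factors, went through 1.59, 0.318, 3.98 and 0.798 FPKM in WT cells. On day 2 it was 0.345 FPKM in *Eomes* KO, 0.665 in *T* KO and 0.191 in dKO cells, with log2 ratios of -3.52, -2.64 and -4.38. In the *Smad4* line WT it was 0.703 FPKM on day 1 and 0.554 on day 2, with no rise. The large ratios thus rest on the single F1G4 WT day 2 value that chose the gene. On day 3 it was 5.19 FPKM in *T* KO cells, above every WT stage, and 0.733 and 0.531 in *Eomes* KO and dKO cells.

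*Egr1* was the only gene of the set in any of 28 gene lists of pathways, cell types and stress responses chosen for this system. Among them were lists for BMP, Nodal and WNT signaling, the primitive streak, pluripotency and neural fate. The lists hold a small part of all genes, and the share they hold together was not computed. Nothing is therefore read from this count. The list with *Egr1*, the immediate early genes, has 24 members, of which 21 were above 1 FPKM at some stage. Of these, 7 (33.3%) were highest on day 2, against 14.2% of 11872 such genes. *Egr1* is 1 of the 7 by the selection itself. The share was higher in the lists of the unfolded protein response (7 of 14, 50%) and of p53 targets (10 of 22, 45.5%), which hold none of the 50 genes. The measured immediate early genes were lower in 2 of 17 cases in *Smad4* KO, 9 of 21 in *Eomes* KO, 7 of 21 in *T* KO and 11 of 21 in dKO cells on day 2, and none was higher. The shares of all genes that were lower were the 3.21%, 4.17%, 9.93% and 4.5% given above, and the F1G4 comparisons share the WT day 2 control. In TPM the lower members numbered 2, 12, 6 and 11, where 3.19%, 6.81%, 8.18% and 13.5% of all genes were lower. In FPKM, the lower ones in dKO cells included *Fos*, *Jun*, *Atf3* and *Cyr61*. *Cyr61*, a secreted matrix protein, was at 6.47, 47.7 and 72.7 FPKM in WT cells on days 1, 2 and 3, and so did not share the fall of *Egr1* after day 2.

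*Grik3* encodes a kainate-type glutamate receptor subunit. Its FPKM was 1.31, 2.81, 5.35 and 3.35 from the ES state to day 3 in F1G4 WT cells, and 4.41 and 7.70 on days 1 and 2 in the *Smad4* line WT. On day 2 it was 1.21 in *Eomes* KO, 2.47 in *T* KO and 1.32 in dKO cells (log2 ratios -2.13, -1.16 and -2.01). It was also lower on day 3 in *Eomes* KO and dKO cells, at 1.68 and 1.11 FPKM. In *Smad4* KO cells it was 5.72 FPKM on day 2, a log2 ratio of -0.43 that did not pass the cutoff.

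*Has2*, the main hyaluronan synthase of the early embryo, moved the other way. Its FPKM was 0.635, 10.6, 25.1 and 11.0 from the ES state to day 3 in WT cells, and 57.4, 62.3 and 57.3 on day 2 in the *Eomes*, *T* and double knockouts. The log2 ratios were 1.21, 1.27 and 1.21, and *Has2* was the single gene past the upper cutoff in each of these comparisons. In TPM it no longer passed in *Eomes* KO or dKO cells. The selection works against a higher knockout value, so this direction was not built in. On day 3 it was 19.7 FPKM in *Eomes* KO, 10.8 in *T* KO and 37.9 in dKO cells, below the day 2 level of each line. In the *Smad4* line it was 30.7 and 22.7 FPKM in WT and 30.3 and 21.1 in KO cells on days 1 and 2, with little difference between them and no rise.

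Several genes passed the cutoff in 1 or 2 of the F1G4 comparisons. *Rap2b*, a Ras-related small GTPase, was 2.76 FPKM in *T* KO cells on day 2 against 13.1 in WT (log2 ratio -2.28), while *Eomes* KO and dKO cells were at 9.69 and 14.6. *Cpe* was likewise low in *T* KO cells, at 2.58 FPKM (log2 ratio -2.15), with 8.59 and 9.06 in the other lines. The dKO line also lacks *T*, and its values for both genes stood near WT. On day 2 *Eomes* was 24.7 FPKM in *T* KO cells against 9.81 in WT, and 1.24 in dKO cells, so these lines differed in *Eomes* too. *Ppp2r2c* and *Cpeb1*, the latter a cytoplasmic regulator of poly(A) tail length, had the same order, with 2.47 and 1.63 FPKM in *T* KO and 5.10 and 3.57 in dKO cells. The *T* KO day 2 column differed from WT at more genes than any other on that day (the 9.93% and 5.7% above), and whether its low values follow from *T* was not tested.

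*Tspan7*, a tetraspanin of the cell surface, was 7.54, 7.26 and 8.87 FPKM in the *Eomes*, *T* and double knockouts against 17.5 in WT, and passed the cutoff in the first pair. *Abcb1b*, a drug efflux pump, stood at 5.36, 5.86 and 6.01 FPKM against 11.3, with only *Eomes* KO past the cutoff and the other log2 ratios at -0.98 and -0.88. For both genes the lines were alike in level and lay on either side of the cutoff. *Gas6*, the ligand of the Tyro3, Axl and Mertk receptor kinases, was 5.16, 6.97 and 3.69 FPKM against 9.22, and *Dok2*, a docking protein, 3.08, 4.86 and 1.98 against 5.11. Both passed it in dKO cells only, with log2 ratios of -1.30 and -1.35. *Cpne2*, a calcium-dependent phospholipid-binding copine, and *Tcaf2* passed it in *Eomes* KO cells, at 1.44 and 1.59 FPKM. *Cpe*, *Gas6* and *Cpne2* lie on chromosome 8, whose genes were higher than WT in the F1G4 knockouts by a median of 0.18, 0.20 and 0.18 on the log2 scale on day 2, against the direction of these 3 genes.

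By what their products do, the rest of the set was varied. These groups were drawn up after the genes were known and carry no test. Genes best known from nerve cells included the AMPA receptor subunit *Gria4* with 3.98 FPKM on day 2, the G protein gamma subunit *Gng3* with 14.8, the microtubule affinity-regulating kinase *Mark1* with 3.01 and the membrane adaptor *Prr7* with 3.02. None of these 4 passed the cutoff in a day 2 comparison. *Gria4* was at 0.734 FPKM in *T* KO cells on day 3, against 2.61 in WT. *Gng3* overlaps *Bscl2*, the lipid droplet protein seipin, on chromosome 19, so reads from their shared stretch may be uncertain, although the libraries kept strand. *Bscl2* went from 7.00 FPKM in the ES state to 24.0 on day 2.

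Signaling proteins inside the cell formed another group. The docking protein *Dok1* had 0.706, 2.63, 4.48 and 2.41 FPKM from the ES state to day 3, *Dok2* had 2.26, 1.75, 5.11 and 1.76, and *Dok5* had 0.242, 0.796, 3.10 and 1.61. All 3 thus peaked between the 3 FPKM minimum of the rule and the median day 2 level of the set, 5.35 FPKM. The kinase *Pim1* reached 15.9 FPKM, and in the *Smad4* line WT it fell from 17.7 to 10.3 instead. The pseudokinase *Trib2* was 3.88 FPKM on day 2 and 1.00 on day 3 in F1G4 WT cells. It rose from 3.80 to 7.91 in the *Smad4* line WT and from 4.48 to 7.73 in *Smad4* KO cells, so that both shared the rise. *Map3k9*, *Arhgdig*, *Plek2*, *Pid1* and *Rnf144a* (an E3 ubiquitin ligase) had 4.11, 13.5, 4.38, 16.8 and 3.83 FPKM on day 2, and none passed the cutoff in a day 2 comparison.

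At the cell surface, the peptidase *Mme* (neprilysin) went from 2.86 to 16.8 FPKM between days 1 and 2 in F1G4 WT cells and from 11.3 to 18.2 in the *Smad4* line WT. In *Smad4* KO cells it went from 6.26 to 15.8, so its rise was present there. *Mal2*, a transport protein of polarised epithelia, had 15.5 FPKM on day 2, *Epb41l3*, a protein 4.1 that links membrane and cytoskeleton, 8.10, and the DCC-related receptor *Igdcc4* 3.96. The latter 3 changed by less than 1.5 times between the days in the *Smad4* line WT, and neither they nor *Mme* passed the cutoff in a day 2 knockout comparison.

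Of the metabolic enzymes, *Gatm*, the first enzyme of creatine synthesis, rose from 2.57 to 4.68 FPKM in F1G4 WT cells and from 2.37 to 3.91 in the *Smad4* line WT. *Gnmt*, a glycine methyltransferase that consumes S-adenosylmethionine, rose from 1.97 to 3.01 in F1G4 and fell from 3.57 to 1.84 in the other line. *Tm7sf2*, a sterol reductase of cholesterol synthesis, went from 7.78 to 11.7 and from 16.1 to 6.28. The lines thus gave opposite changes for *Gnmt* and *Tm7sf2* and the same change for *Gatm*. *Dcxr*, a carbonyl reductase, was 3.98 and 13.5 FPKM in F1G4 and 16.5 and 14.1 in the *Smad4* line on the same days.

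Among nuclear genes, *Rec8*, the meiotic cohesin subunit, was 4.50 FPKM in F1G4 WT cells on day 2 and 1.08 in the *Smad4* line WT, where it had fallen from 3.52. The elongation factor *Tcea2* stood at 3.04 FPKM in WT and at 5.72, 5.83 and 5.29 in the *Eomes*, *T* and double knockouts, under the cutoff with log2 ratios of 0.92, 0.89 and 0.81. *Firre*, an X-linked RNA that takes part in nuclear organisation, went through 2.64, 5.78, 9.03 and 5.62 FPKM in WT cells, and the second non-coding RNA, *9230114K14Rik*, through 2.86, 2.99, 5.84 and 3.04. The remaining genes, *Fam171a1*, *Wdr86*, *Pqlc3* and *Tmem150a*, had 5.56, 3.75, 5.46 and 3.96 FPKM on day 2 and passed no cutoff on that day. In all, 29 of the 50 genes were past the cutoff in no day 2 comparison.

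Whether the genes fell after day 2 was also followed within each knockout line, using knockout columns only, each set on the scale of the time course through the WT column of its table (factors of 0.989 to 1.04). At least 1.5 times lower on day 3 than on day 2 were 22 of 49 genes (44.9%) in *Eomes* KO cells, against 24.2% of 11577 genes, and 25 of 50 (50%) in *T* KO cells, against 20.3% of 11396. In dKO cells 10 of 49 (20.4%) were, against 12.2% of 11305. The median log2 change of the 50 genes was -0.52, -0.65 and -0.02, where all genes tested had -0.02, 0.01 and -0.05. In FPKM, the dKO line thus differed from the other knockouts in that the median gene kept its day 2 level, and the difference between lines was not tested. When FPKM was rescaled to TPM, the shares became 26.5% in *Eomes* KO, 66% in *T* KO and 10.2% in dKO cells, where 10.2%, 28.0% and 4.91% of all genes fell as far. On the log2 scale, the FPKM sum of day 3 differed from that of day 2 by -0.49, 0.19 and -0.28 in these lines. TPM takes this shift out of every gene, so which line has a median near 0 depends on the scale.

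**Figure D5:**
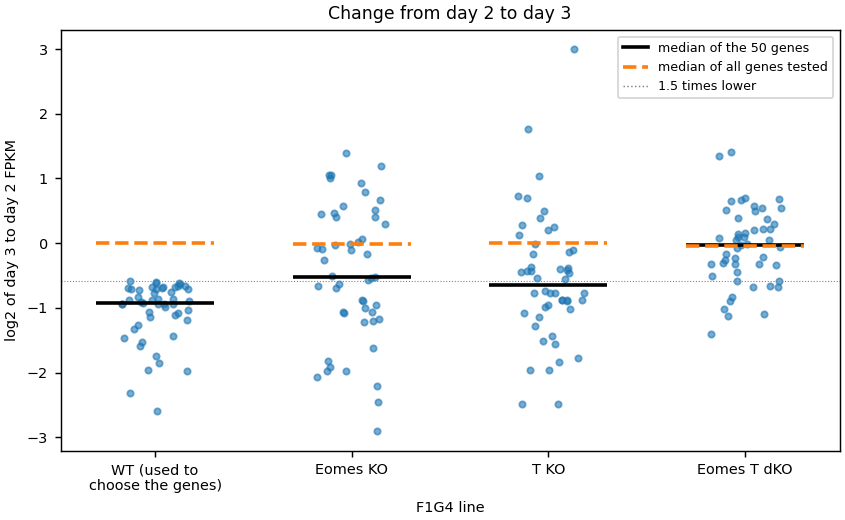
log2 of day 3 to day 2 FPKM for the 50 genes (points) in F1G4 WT and the 3 F1G4 knockout lines, with the median of the 50 genes (black), the median of all genes tested (orange, dashed) and a 1.5-fold fall (dotted). All WT points lie below the dotted line by selection, and the medians of the knockouts are -0.52, -0.65 and -0.02.

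*Has2* and *Gnmt* fell in every knockout line, by log2 changes of -1.62, -2.49 and -0.67 for *Has2*. For *Gnmt* the changes were -2.07, -2.49 and -1.10. *Ppp2r2c*, *Cpeb1* and *Prr7* were far lower on day 3 than on day 2 in *Eomes* KO cells, at 0.772, 0.861 and 0.512 FPKM, and stayed at 4.33, 4.12 and 2.40 in dKO cells. WT cells, which fell by selection, were at 2.53, 1.69 and 0.838 FPKM on day 3. *Dok2* likewise was at 0.859 FPKM in *Eomes* KO and 5.27 in dKO cells on day 3, against 1.76 in WT. All 4 *Eomes* KO values were under 1 FPKM. The *Eomes* KO and the dKO line derived from it, within 0.5 FPKM of each other for the first 3 genes on day 2, thus stood apart for all 4 on day 3. *T* itself was 22.3 FPKM in *Eomes* KO and 2.77 in dKO cells on day 2. By day 3 it was 4.46 and 1.93 FPKM, against 334 and 332 in WT, and *Eomes* was 0.276 and 0.346 FPKM. Both RNAs were thus low in both lines on day 3, and why the 4 genes differed was not tested.

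Against WT on day 3, a stage at which the rule had required low values, 9 of 48 genes (18.8%) were higher and 8 (16.7%) lower in *Eomes* KO cells, where 7.39% and 9.01% of 11629 genes were. In *T* KO cells 3 of 50 (6%) were higher and 4 (8%) lower, where 2.12% and 3.92% of 11239 genes were. In dKO cells 14 of 49 (28.6%) were higher and 3 (6.12%) lower, where 5.51% and 5.53% of 11473 genes were. Higher values are partly built in here, and the counts are given as description. *Cpe* was at 12.4 FPKM in dKO cells (log2 ratio 2.07), *Has2* at 37.9 (1.73) and *Trib2* at 4.04 (1.96). *Trib2* was past the cutoff in each of the lines, with 2.92 FPKM in *Eomes* KO and 2.37 in *T* KO cells against 1.00 in WT. *Firre* reached 19.4 FPKM in *Eomes* KO cells, above every WT stage, and 13.7 in dKO cells.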

How the data were processed

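RNA-seq of 18 samples was used. The deposited values are FPKM: the authors trimmed reads of strand-specific total RNA libraries with cutadapt, aligned them with HISAT2 (2.1.0 per the submitters' processing notes) to mm10, which is GRCm38, and ran Cuffdiff (2.2.1) on the refSeq annotation. The 9 tables hold 24538 genes each, with 1 value per condition that combines its replicates, so counting precision is unknown and no replicate check exists. Here, genes were chosen by the stated rule, ratios were taken within a table without pseudocount, and calls used FPKM above 1 and a log2 ratio past 1 or -1. The members and gene lists were chosen with earlier results of these data known. Genes were named by level, ratio to the next stage, and the 5 lowest and 5 highest log2 ratios per day 2 comparison, and all others are given by role. Names converted to dates were not used, and 1 gene of the set enters the counts but is not reported here. Alternatives were a pseudocount of 1, FPKM minimums, TPM, median scaling and stricter sets. The call step was tested on simulated data. Python 3.11.15, numpy 2.4.6, pandas 2.3.3 and matplotlib 3.10.9 were used.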

Additional observations from a re-analysis of the deposited data

Results flagged for a closer look

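In 6 of the genes shown the change from day 1 to day 2 went opposite ways in the WT cells of both lines, each by at least 1.5 times: a rise in F1G4, which the selection required, and a fall in the *Smad4* line. The log2 change in the *Smad4* line WT was -1.71 for *Rec8* (3.52 to 1.08 FPKM), -1.36 for *Tm7sf2* (16.1 to 6.28 FPKM) and -0.95 for *Gnmt* (3.57 to 1.84 FPKM). It was -0.78 for *Pim1*, -0.76 for *Prr7* and -0.70 for *Arhgdig*. The difference between the lines was not tested, since each line and day is 1 value.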

How the results depend on the processing

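Of 110 values recomputed, 79 stayed within 1.5 times the reported one. The number of genes was 9 with a ratio of at least 2, 15 with day 2 FPKM of at least 10 and 131 in TPM, with all 50 genes among the 131. Median scaling kept 49 of the 50 (without *Tcea2*) and moved no other value by that much. With a pseudocount of 1, the percent lower on day 2 was 8.16 in *Smad4* KO, 10 in *Eomes* KO and 12 in *T* KO. With FPKM above 5, the percent rising in the *Smad4* line WT was 34.6, the percent higher on day 2 was 7.14 in *Smad4* KO, 3.33 in *Eomes* KO, 3.12 in *T* KO and 3.45 in dKO, and that higher on day 3 was 11.1 in *T* KO. In TPM the percent higher on day 2 was 0 in *Eomes* KO, 4 in *T* KO and 0 in dKO, the percent lower in dKO was 36, that higher on day 3 in *Eomes* KO 33.3, and that falling to day 3 was 26.5 in *Eomes* KO and 10.2 in dKO. Among the 9 genes with a ratio of at least 2, the percent rising in the *Smad4* line WT was 37.5, lower on day 2 were 25 in *Smad4* KO, 55.6 in *T* KO and 44.4 in dKO, higher on day 2 were 12.5 in *Smad4* KO and 11.1 in each F1G4 knockout, higher on day 3 were 0 in *Eomes* KO, 11.1 in *T* KO and 62.5 in dKO, and 87.5 fell to day 3 in *Eomes* KO. These last values rest on 8 or 9 genes. The TPM changes follow from the unequal FPKM sums of the columns, and the other causes were not tested. No paired analysis was possible because each table holds only 1 pooled value per condition, and for the same reason no replicate could be left out.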

Other observations

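Among close relatives of several of these genes, some were also highest on day 2 and others were not. They were chosen after the values were seen and carry no test. Of the other neurofilament genes, *Nefh* fell from 11.5 FPKM in the ES state to 1.61 on day 2 and 0.12 on day 3 in F1G4 WT cells, and *Ina* from 19.2 to 6.56 and 0.87. *Nefm* was low but highest on day 2, like *Nefl*, with 0.13, 0.28, 1.04 and 0.73 FPKM from the ES state to day 3. In the *Smad4* line WT, *Nefm* rose from 4.57 FPKM on day 1 to 8.17 on day 2, and it was 3.37 FPKM in *Smad4* KO cells on day 2. Of the Dok adaptors, *Dok4* rose to day 3, with 1.49, 2.91, 3.77 and 5.63 FPKM from the ES state on, and *Dok3*, *Dok6* and *Dok7* stayed below 1 FPKM at every stage. *Hs6st1* was highest in the ES state (14.1 FPKM) and was 10.4 FPKM in the *Smad4* line WT and 15.0 in *Smad4* KO cells on day 2, where *Hs6st2* had 12.8 and 4.12. *Has1* and *Has3* stayed below 1 FPKM at every stage. *Abcb1a*, the close copy of *Abcb1b*, fell from 3.39 FPKM in the ES state to 1.12 on day 2.

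Among the Gas6 receptors, *Axl* rose through 0.21, 0.48, 2.00 and 3.21 FPKM from the ES state to day 3, *Tyro3* went from 11.0 to 8.06 FPKM between the ES state and day 2, and *Mertk* was highest on day 1 at 2.30 FPKM. In *Smad4* KO cells on day 2, *Tyro3* was 20.4 FPKM against 9.71 in WT. *Egr2* followed *Egr1* at lower levels, with 0.10, 0.14, 1.17 and 0.52 FPKM over the stages, and 1.42 FPKM in *T* KO cells on day 3. *Gria3*, like *Gria4*, was highest on day 2, with 3.28 FPKM, and had 2.21 on day 3.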
